A study of Mus musculus with 165 samples.

Results

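The ETS transcription factors followed here are *Spi1* (which encodes PU.1), *Spib*, *Ets1*, *Ets2*, *Elf1*, *Elf4*, *Fli1*, *Etv6* and *Gabpa*, 9 of the 36255 genes in the table of normalized counts. They were taken by gene symbol and were followed over every time point of both cytokine conditions. All 9 passed the filter on low values (5 or more normalized counts in 1 library or more), *Spib* with at most 10 reads in any library. PUER cells, a bone-marrow progenitor line with the genotype Spi1-/- from which every library here was made, carry a fusion of PU.1 with the part of the estrogen receptor that binds ligand, and this fusion becomes active when 4-hydroxy-tamoxifen (OHT) binds it. The *Spi1* counts can therefore hold transcripts of the fusion as well as of the targeted gene, and the table does not separate them.

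The undifferentiated cells (3 libraries) grew in 5 ng/mL IL3 without OHT and are the start of both courses. GCSF 0h (3 libraries) are cells kept for 48 h in 10 ng/mL GCSF instead of IL3. Their titles name OHT, but their treatment labels give only the change of cytokine, and they are taken here as cells before OHT. GCSF-OHT (78 libraries) then received 100 nM OHT in GCSF, and IL3-OHT (81 libraries) received 200 nM OHT in IL3, each followed at 27 time points from 1h to 168h. The OHT dose thus differs between the conditions along with the cytokine and the pre-treatment, and no library without OHT was paired with the later time points, so that OHT, time in culture and handling cannot be told apart. PUER is a single line, and every time point came from its own plate, so that the p-values measure the spread between wells.

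ETS factors bind DNA through a shared winged helix-turn-helix domain that recognizes the core GGAA, and they differ in the flanking bases, in their partners and in whether they activate or repress. PU.1 is the ETS factor that macrophages and neutrophils depend on, and its level is known to bias progenitors between these lineages. *Ets1*, *Ets2* and *Fli1* are broadly used activators of hematopoietic and endothelial cells, *Etv6* is a repressor needed for bone-marrow hematopoiesis, *Elf1* and *Elf4* are activators of lymphoid and myeloid genes, and *Gabpa* is the DNA-binding subunit of GABP, which drives nuclear genes for mitochondrial proteins.

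In GRCm38 (GENCODE M21), *Spi1* (ENSMUSG00000002111) lies on chromosome 2 from 91082390 to 91115756, *Etv6* (ENSMUSG00000030199) on chromosome 6 from 134035700 to 134270158 and *Elf1* (ENSMUSG00000036461) on chromosome 14 from 79481194 to 79582494. *Spib* (ENSMUSG00000008193) lies on chromosome 7 from 44525993 to 44532071 and *Elf4* (ENSMUSG00000031103) on chromosome X from 48411046 to 48463132. *Fli1* (ENSMUSG00000016087, chromosome 9 from 32422204 to 32542861) and *Ets1* (ENSMUSG00000032035, chromosome 9 from 32636221 to 32757820) are neighbours that point away from each other, with 93360 bases between them. *Ets2* (ENSMUSG00000022895, chromosome 16 from 95702075 to 95721051) has the ETS gene *Erg* 115482 bases away, and *Gabpa* (ENSMUSG00000008976) lies on the same chromosome from 84834925 to 84863779.

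RefSeq promoter sequences (GRCm38.p6, 250 bases before to 50 bases after the start) were matched for 6 of the 9 genes. Those of *Gabpa*, *Ets2* and *Etv6* are shown because each of these genes passed the test in the IL3-OHT course and because the letters of an ETS site differ between them. Capitals mark the ETS consensus core CCGGAA or the PU-box core GAGGAA on either strand (TTCCGG and TTCCTC), whose matches do not overlap in the windows shown. The windows are chr16:84834874-84835173 for *Gabpa*, chr16:95702157-95702456 for *Ets2* and chr6:134035450-134035749 for *Etv6*, all on the plus strand, written 5′ to 3′.
Gabpa: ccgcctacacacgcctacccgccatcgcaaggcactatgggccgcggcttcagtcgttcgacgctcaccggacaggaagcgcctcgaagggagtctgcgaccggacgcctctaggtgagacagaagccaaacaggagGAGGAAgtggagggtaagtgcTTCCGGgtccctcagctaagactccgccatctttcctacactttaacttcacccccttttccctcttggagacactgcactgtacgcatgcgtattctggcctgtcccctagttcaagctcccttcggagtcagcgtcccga
Ets2: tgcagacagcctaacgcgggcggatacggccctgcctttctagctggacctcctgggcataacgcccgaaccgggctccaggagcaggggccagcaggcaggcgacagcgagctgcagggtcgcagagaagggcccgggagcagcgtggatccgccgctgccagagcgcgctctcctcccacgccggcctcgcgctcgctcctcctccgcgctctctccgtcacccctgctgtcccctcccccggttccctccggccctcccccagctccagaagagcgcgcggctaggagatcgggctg
Etv6: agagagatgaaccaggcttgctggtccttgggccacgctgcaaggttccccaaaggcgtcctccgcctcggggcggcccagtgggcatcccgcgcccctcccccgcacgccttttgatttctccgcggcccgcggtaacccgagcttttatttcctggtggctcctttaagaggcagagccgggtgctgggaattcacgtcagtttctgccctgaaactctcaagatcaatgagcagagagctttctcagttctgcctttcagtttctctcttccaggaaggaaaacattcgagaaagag
The *Gabpa* window holds 1 CCGGAA core and 1 GAGGAA core, and the *Ets2* and *Etv6* windows hold neither. Other occurrences of the shorter core GGAA, on either strand, are present in all of these windows and were not marked. Of 32851 promoters of this length, 14.9% hold CCGGAA and 28.3% hold GAGGAA. Among the matched windows not shown, each of those of *Elf4* holds 1 GAGGAA core and no CCGGAA core. Those of *Spib*, which also passed the test in the IL3-OHT course, and of *Elf1* hold neither.

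Reads on genes ran from 14600246 to 33147945 per library, so that 1 read is worth a normalized count of 0.652 to 1.84. *Spi1* had at least 2754 reads in each library. Most macrophage markers rose with OHT in both conditions (5 of 7 tested were higher at IL3-OHT 168h, 6 of 7 at GCSF-OHT 168h against GCSF 0h). In IL3 *Adgre1*, the F4/80 antigen, had a mean normalized count of 8.66 before and 334 after 168h. At GCSF 0h, 4 of these 7 markers were lower and 2 higher than in undifferentiated cells. At GCSF-OHT 168h, 3 were higher than in undifferentiated cells and none was lower, beside 39.1% of all genes called. Of 8 neutrophil markers, 5 were higher and 2 lower at GCSF-OHT 168h than at GCSF 0h, and *Lcn2*, a secondary granule protein, went from 19875 to 125149. At IL3-OHT 168h, 4 of these 8 were higher and 1 lower than in undifferentiated cells, and *Lcn2* went from 14186 to 50578. Of 6 progenitor markers, 5 were lower and 1 higher at IL3-OHT 168h, where *Spi1* and *Ets2* were lower too. At GCSF-OHT 168h, 4 were lower than at GCSF 0h. Of all genes tested, 25.4% were called at IL3-OHT 168h, 24.8% at GCSF-OHT 168h against GCSF 0h and 33.7% at GCSF 0h. In GCSF-OHT against IL3-OHT over the shared time points, 24.5% were called. At GCSF 0h, 4 of 8 neutrophil markers were higher and 1 lower than in undifferentiated cells, and of 6 progenitor markers 1 was higher and 3 lower. Over the shared time points, 5 of 8 neutrophil markers were higher in GCSF-OHT and none was lower. Of the 7 macrophage markers tested, 2 were higher and 3 lower there, and of the 6 progenitor markers 1 was higher and 1 lower. At least 3 of 5 markers each of B, T and erythroid cells had at most 3 reads in every library of the 6 groups at 0h, 8h and 168h. Of 6 mast cell and basophil markers, 3 passed the filter. Of these, 2 were higher at GCSF 0h than in undifferentiated cells. All 3 were higher in GCSF-OHT than in IL3-OHT over the shared time points. *Ets1*, *Fli1* and *Etv6* were higher in both comparisons too, as were several neutrophil markers. The summed normalized count of the 6 mast cell and basophil markers was 217 to 233 in undifferentiated cells and 517.5 to 638 at GCSF 0h. In each of these groups 3 of the 6 had at most 3 reads in every library. The part of these other markers in the results was not tested. The 120h libraries carry another prefix in their library names than the others, and the study excluded IL3-OHT 96h and 144h. Values do not include the 6 libraries of IL3-OHT 96h and 144h unless they are named, and they do include the 120h libraries.

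Per kilobase of the longest coding transcript, *Spi1* had the highest level of the 9 genes in every group examined. The *Spi1* count can hold fusion transcripts and was divided by the length of the annotated *Spi1* transcript. Its level is therefore not that of the targeted gene alone, and the length of the fusion transcript was not used. In undifferentiated cells, the level of *Spi1* was 4912 ± 120.8 normalized counts per kb (SD, n = 3), followed by *Ets2* at 704 ± 5.51, *Etv6* at 549 ± 9.21, *Elf4* at 390.2 ± 17.1, *Fli1* at 378 ± 1.75, *Gabpa* at 275 ± 2.66, *Elf1* at 180.1 ± 9.71, *Ets1* at 144.5 ± 3.71 and *Spib* at 1.73 ± 1.08. Only *Elf4* and *Fli1* were next to each other with overlapping libraries in that order. After GCSF pre-treatment, *Fli1* (1097 ± 15.6), *Etv6* (1033 ± 38.5) and *Ets1* (555 ± 45.9) stood at ranks 2, 3 and 4, and *Ets2* (296 ± 13.4) stood at rank 6. The 168h libraries of both conditions had the order *Spi1*, *Etv6*, *Fli1* at the top, and *Gabpa*, *Elf1* and *Spib* at the bottom, with overlapping libraries of *Gabpa* and *Elf1* in IL3. With the length of all merged exons instead, chosen after the values were seen, *Spi1* stayed first and *Spib* last in all 4 groups, while *Ets2* and *Etv6* changed places in undifferentiated cells, *Ets1* and *Ets2* at IL3-OHT 168h, and *Ets1* and *Elf4* in both GCSF groups.

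The *Spi1* count was not constant over the courses. It fell in IL3 after OHT, and in GCSF it was called lower at 2 of 27 time points. In undifferentiated cells the 3 libraries had normalized counts of 10268, 9905 and 9799, and at IL3-OHT 168h they had 5404, 5685 and 5689. The groups do not overlap, and the log2 difference was -0.84 ± 0.05 (SE, adjusted p = 3.60e-32, limma with Benjamini-Hochberg adjustment over 17414 genes). In these bulk libraries, fewer cells of a type and less RNA per cell cannot be told apart. A gene was called when the adjusted p was under 0.05 and the log2 difference over 0.58 in size. The GCSF 0h libraries had 12483, 12811 and 12464, and the GCSF-OHT 168h libraries 11004, 10728 and 11631. Each GCSF-OHT 168h library lay below each GCSF 0h library, but the log2 difference of -0.18 ± 0.05 (adjusted p = 8.11e-04) was too small to be called. The OHT effect at 168h differed between the conditions by 0.66 ± 0.07 on the log2 scale (GCSF minus IL3, adjusted p = 3.09e-15).

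The fall in IL3 was neither immediate nor steady. *Spi1* stood at 8949.5 ± 166.9 (SD, n = 3) at IL3-OHT 1h, 11672 ± 700 at 2h and 12364 ± 311 at 3h, its highest mean in IL3. At 8h it was at 8923 ± 18.8, which is -0.16 ± 0.05 (SE) from undifferentiated cells on the log2 scale and not called. It was first called lower at 24h (-0.61 ± 0.05) and at 15 of 25 time points in all, with its lowest mean at 160h (4715 ± 159.3, a log2 difference of -1.08 ± 0.05). In GCSF, *Spi1* was called lower than at GCSF 0h at 40h (-0.68 ± 0.05) and 56h (-0.60 ± 0.05) and at no other of the 27 time points. Over the 25 time points that both conditions keep, the GCSF-OHT mean of *Spi1* was above the IL3-OHT mean at 23, and the mean log2 difference of 0.55 ± 0.01 was just under the threshold.

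*Esr1*, the estrogen receptor gene, was followed beside *Spi1* because the fusion carries the receptor's ligand-binding domain. It had normalized counts of 5034, 5141 and 5089.6 in the undifferentiated libraries and 1898, 2114 and 2128 at IL3-OHT 168h. The groups do not overlap, and *Esr1* fell by 1.32 on the log2 scale (SE 0.06, adjusted p = 2.22e-42). In GCSF it had 3917, 4119 and 3999 at 0h and 3523, 3334 and 3655 at 168h (-0.20 ± 0.06, adjusted p = 0.00223, not called), and the OHT effect at 168h differed between the conditions by 1.12 ± 0.08 (adjusted p = 2.55e-24). Over the 54 groups of the main fit, Pearson's r between the mean log2 values of *Spi1* and *Esr1* was 0.768 (0.931 over the 25 IL3-OHT time points and 0.675 over the 27 GCSF-OHT time points), a description of groups that share the 2 starting points and the normalization. *Esr1* ranked 349 of 9930 genes by this r. It was called lower at 14 of 25 IL3-OHT time points and at 4 of 27 in GCSF.

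**Figure D1:**
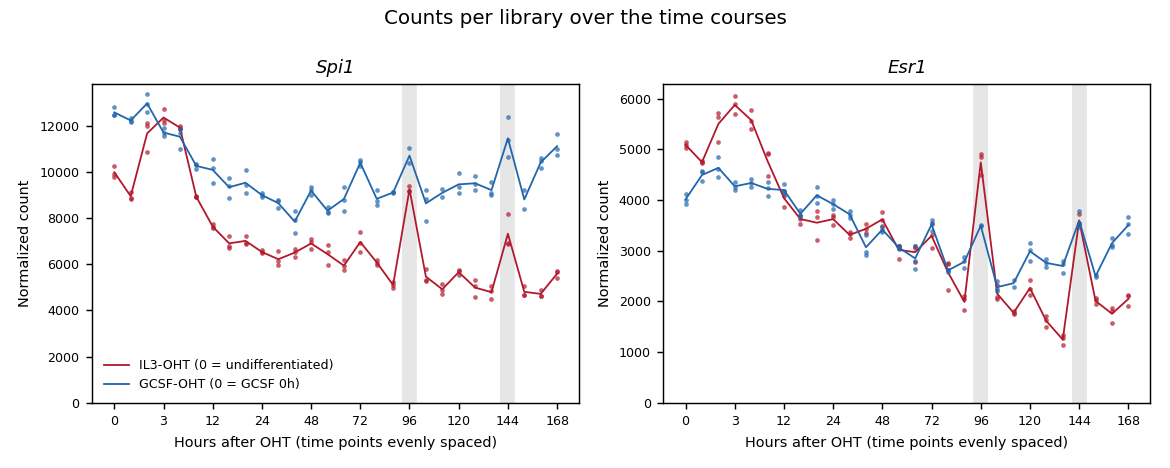
Normalized counts of *Spi1* and *Esr1* (y axes) in each library (points) and group means (lines) against hours after OHT, with time points evenly spaced and 0 standing for undifferentiated cells (IL3-OHT, red) or GCSF 0h (GCSF-OHT, blue). The grey bands mark 96h and 144h, and in IL3 both genes stand above the neighbouring time points there.

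*Esr1* did not follow *Spi1* in a fixed ratio. There were 51 *Esr1* counts per 100 *Spi1* counts in undifferentiated cells, 31.9 at GCSF 0h, 36.6 at IL3-OHT 168h and 31.5 at GCSF-OHT 168h (means of 3 libraries). The log2 ratio was lower by 0.68 ± 0.03 (SE) at GCSF 0h and by 0.48 ± 0.04 at IL3-OHT 168h than in undifferentiated cells, in each case with no overlap between the libraries. The exact two-sided permutation test gave p = 0.10 for both, the smallest p that 3 against 3 libraries allow. Between GCSF 0h and GCSF-OHT 168h the log2 ratio differed by -0.02 ± 0.02 (exact permutation p = 0.30). The ratio was not constant between these end points. It rose to 43.5 *Esr1* counts per 100 *Spi1* counts at GCSF-OHT 24h and fell to 25.9 at 112h (2 libraries). In IL3 it was 26 at 136h, below its value at 168h.

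**Figure D2:**
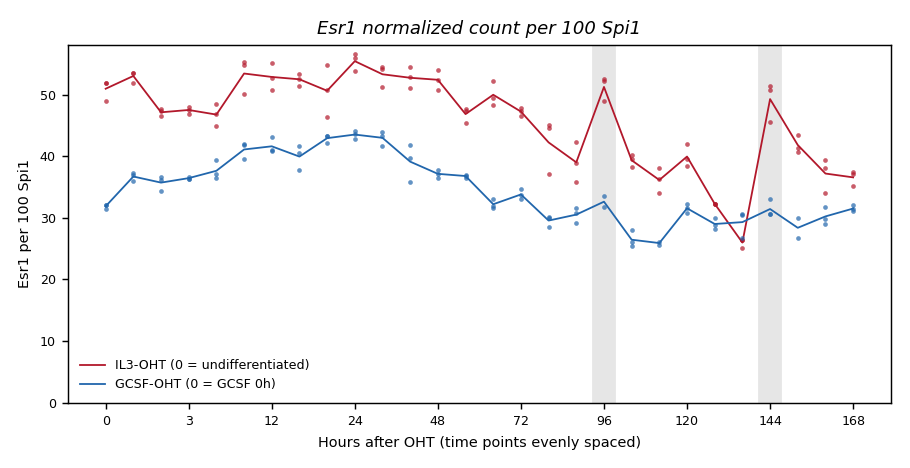
*Esr1* normalized counts per 100 *Spi1* normalized counts (y axis) in each library (points) and group means (lines) against hours after OHT, time points evenly spaced. The ratio starts at 51 in undifferentiated cells (IL3-OHT, red, at 0) and at 31.9 at GCSF 0h (GCSF-OHT, blue, at 0), and the grey bands mark 96h and 144h.

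At the time points that the study excluded, *Spi1* and *Esr1* returned towards their starting levels. *Spi1* had 9161, 9399 and 9196 at IL3-OHT 96h, against 5089.9, 4974 and 5236 at 88h and 5777, 5328 and 5286 at 104h. In a fit with every library it was 0.81 ± 0.04 above the mean of these neighbours on the log2 scale (adjusted p = 4.27e-35), and *Esr1* was 1.20 ± 0.05 above (adjusted p = 1.27e-44). At IL3-OHT 144h, *Spi1* was 0.61 ± 0.04 (adjusted p = 2.30e-25) and *Esr1* 1.19 ± 0.05 (adjusted p = 5.33e-44) above the mean of 136h and 152h. Of the 9 members, *Spi1* and *Spib* were called at IL3-OHT 96h and *Spi1* at 144h, beside 17.5% and 15.4% of all 17439 genes tested. Without replicate 3 the difference of *Spi1* at 144h was 0.52 and not called. In GCSF, in comparisons chosen after these values were seen, *Spi1* was 0.27 ± 0.05 above its neighbours at 96h (2 libraries) and 0.35 ± 0.04 at 144h, and *Esr1* 0.47 ± 0.06 and 0.47 ± 0.05. None of the 9 members was called there, beside 4.65% and 1.85% of all genes. OHT and medium had been replenished at 40h, 88h and 136h, which are the time points just before 48h, 96h and 144h, and the part of this in the values was not tested. At 48h, also chosen afterwards, *Spi1* was 0.09 ± 0.04 above its neighbours in IL3 and 0.19 ± 0.04 in GCSF. At 72h, which follows no replenishment, it was 0.21 ± 0.04 and 0.24 ± 0.04 above. *Esr1* was 0.17 ± 0.05 and 0.16 ± 0.05 above at 48h and 0.25 ± 0.05 and 0.37 ± 0.05 above at 72h. All genes called made up 1.6% and 0.35% at 48h and 1.53% and 1.39% at 72h. The part of replenishment in these values was not tested either.

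*Spib*, a close relative of PU.1 used in B cells and plasmacytoid dendritic cells, was at the limit of detection. The undifferentiated libraries had 3, 8 and 2 reads, the GCSF 0h libraries 2, 6 and 4, the IL3-OHT 168h libraries 3, 0 and 1, and the GCSF-OHT 168h libraries 3, 7 and 8. With 3 reads taken as the limit of detection, most of these libraries lie near the limit. The IL3-OHT 128h libraries had 0 reads each, and at IL3-OHT 96h there were 6, 4 and 5. It was called lower at 10 of 25 IL3-OHT time points (5 without replicate 1, 3 without replicate 2). *Spib* passed the test over the IL3-OHT course and in the comparison of the conditions over shared time points, both of which rest on counts of this size.

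More members differed before OHT, between undifferentiated cells and GCSF 0h, than after OHT in GCSF. Between undifferentiated cells and GCSF 0h, *Ets1*, *Fli1* and *Etv6* rose, *Ets2* fell, and 5 of the 9 members were not called. The median log2 difference was 0.20 over the members and -0.09 over all genes tested, of which 33.7% were called. At GCSF-OHT 8h and again at 168h, none of the 9 members was called against GCSF 0h by limma, edgeR or DESeq2, beside 9.4% and 24.8% of all genes. Without the fold threshold, 5 and 7 members had an unadjusted p under 0.05 in these comparisons, with log2 differences between -0.43 and 0.31 for all but *Spib*.

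In IL3, 2 of 9 members were called at 8h (*Fli1* higher, *Ets2* lower), beside 29.7% of all genes, and 3 of 9 at 168h (*Ets1* higher, *Spi1* and *Ets2* lower), beside 25.4%. From undifferentiated cells to GCSF-OHT 168h, 4 of 9 were called, beside 39.1%. They were the same genes in the same directions as after pre-treatment alone. Over the whole IL3-OHT course, 7 of 9 members changed (all but *Elf1* and *Elf4*), beside 69.7% of all genes, and over the GCSF-OHT course 2 of 9, *Spi1* and *Ets1*, beside 47.7%. In IL3 the members' share lies close to that of all genes and in GCSF below it. Without replicate 1, *Elf1* was called over the IL3-OHT course as well.

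**Figure D3:**
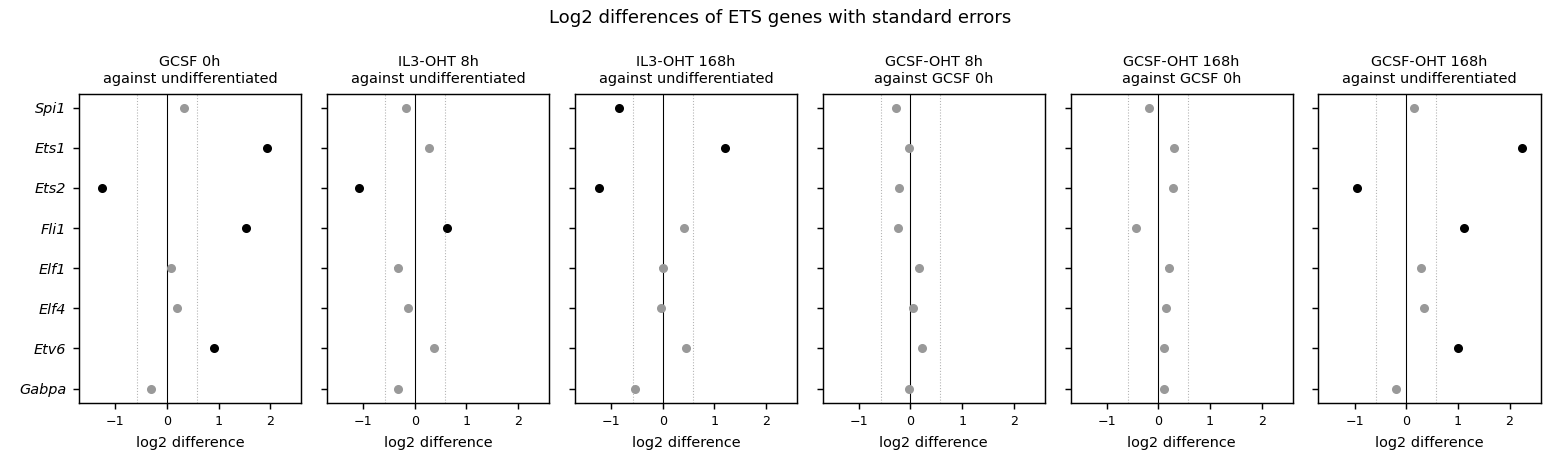
Log2 differences (x axes) of the 8 members with more than a few reads in 6 comparisons, with standard errors that are mostly smaller than the points. Black points passed the test and the threshold (dotted lines at 0.58 either side of 0) and grey points did not, and *Ets1* and *Ets2* lie on opposite sides of 0 in each comparison where both are black.

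*Ets1* had the largest rise of the members. The undifferentiated libraries had normalized counts of 728, 719 and 755, the GCSF 0h libraries 2565, 3022 and 2871, and the GCSF-OHT 168h libraries 3518, 3535 and 3441. It was higher than in undifferentiated cells by 1.94 ± 0.04 at GCSF 0h (adjusted p = 1.84e-71) and at GCSF-OHT 168h by 2.25 ± 0.04 (adjusted p = 1.01e-78). At GCSF-OHT 1h it stood at 1941 ± 47.2 (SD), its lowest level in that condition. It then climbed to 4983 ± 126.4 (SD, n = 2) at 112h and was called higher than at GCSF 0h at 11 of 27 time points, first at 56h. In IL3, *Ets1* was called higher at 20 of 25 time points, first at 12h, with the highest mean at 104h (2457, with libraries from 2244.5 to 2581). At IL3-OHT 168h the libraries had 1614, 1827 and 1626, all above the undifferentiated libraries (1.20 ± 0.04, adjusted p = 1.27e-50). Measured from GCSF 0h, the OHT effect on *Ets1* at 168h differed from that in IL3 by -0.88 ± 0.06 on the log2 scale (adjusted p = 3.14e-26), while its level was higher in GCSF-OHT at each of 25 shared time points (mean log2 difference 1.18 ± 0.01, adjusted p = 6.89e-125).

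*Ets2* was the first member called after OHT, higher at IL3-OHT 1h. It then fell in IL3, where *Ets1* rose. In the undifferentiated libraries it had 2759.5, 2736 and 2717, at IL3-OHT 1h 4414, 4400.2 and 4574, and at 2h 2197, 2161 and 2025. The rise of 0.70 ± 0.05 in the first hour (adjusted p = 4.67e-22) and the fall of 1.07 ± 0.05 in the second (adjusted p = 1.09e-36) were the only changes between consecutive time points called for any member in either condition. All genes called in these steps made up 4.42% and 15.2%, against 6.05% and 5.19% in the first and second hours of GCSF-OHT, where none of the 9 members was called. In GCSF, *Ets2* had 1209, 1131 and 1110.0 at 0h and 1595, 1571 and 1672 at 1h, which do not overlap (0.49 ± 0.05, not called). Between the conditions the change of *Ets2* at 1h differed by -0.22 ± 0.07 (adjusted p = 0.0538, not called).

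After the first hour, *Ets2* in IL3 went down until 32h and then partly came back, with log2 differences from undifferentiated cells of -1.49 ± 0.05 at 32h, -0.87 ± 0.05 at 136h and -1.24 ± 0.05 at 168h. It was called lower than in undifferentiated cells at 23 of 25 time points, at 32h with its lowest mean (977 ± 43.95), and at 168h with 1119, 1203 and 1161 (adjusted p = 5.54e-43). The GCSF 0h libraries had reached that range before OHT (-1.25 ± 0.05 from undifferentiated cells, adjusted p = 1.01e-43), and at no time point in GCSF was *Ets2* called against 0h. The OHT effects on *Ets2* differed between the conditions at 8h (0.86 ± 0.07, adjusted p = 2.61e-19) and at 168h (1.53 ± 0.07, adjusted p = 2.21e-37). Over shared time points the mean log2 difference was -0.13 ± 0.01, and the GCSF-OHT mean was the higher at 13 of 25.

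**Figure D4:**
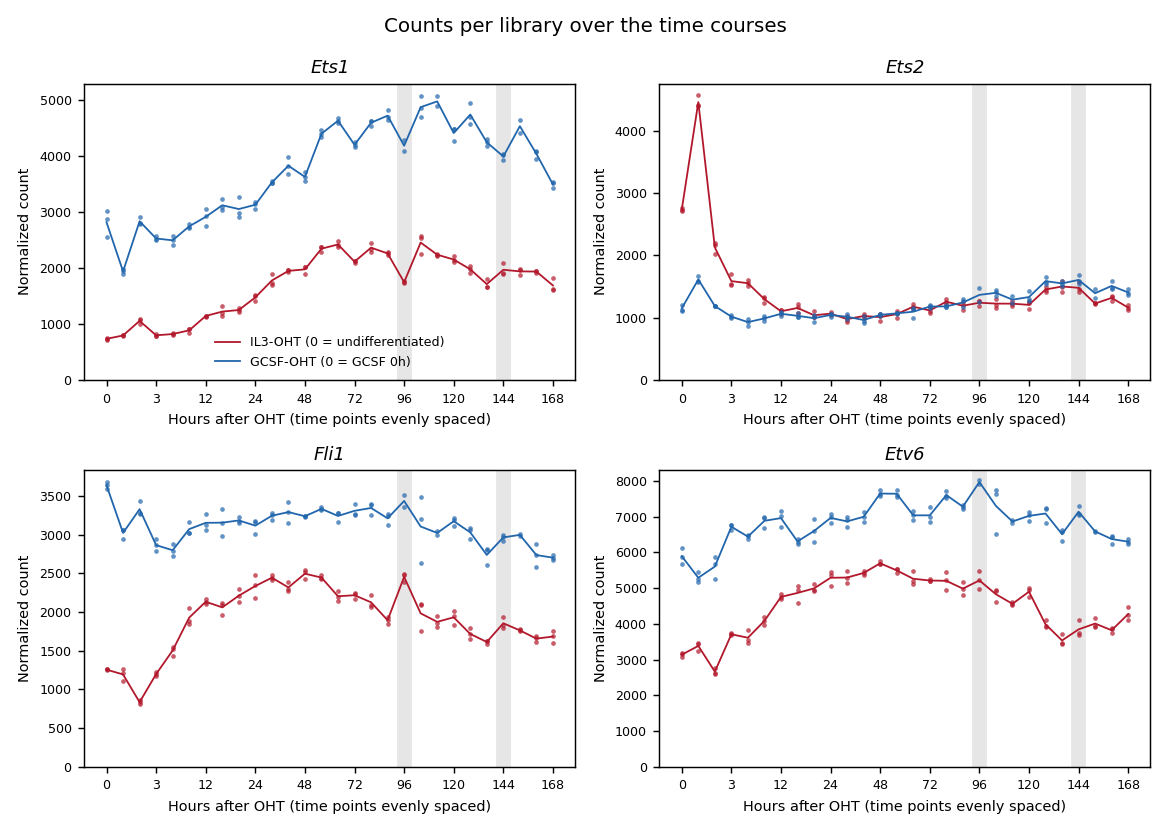
Normalized counts of *Ets1*, *Ets2*, *Fli1* and *Etv6* (y axes) in each library (points) and group means (lines) against hours after OHT, time points evenly spaced, with undifferentiated cells or GCSF 0h at 0 and grey bands at 96h and 144h. The GCSF-OHT means (blue) of *Ets1*, *Fli1* and *Etv6* lie above the IL3-OHT means (red) at each of the 25 shared time points, and *Ets2* peaks at 1h in IL3.

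*Fli1*, the neighbour of *Ets1*, rose with GCSF as well. The undifferentiated libraries had 1248, 1258 and 1259, and the GCSF 0h libraries 3585, 3643 and 3688 (1.53 ± 0.05, adjusted p = 7.68e-57). In IL3 it first dropped to 839, 808 and 856 at 2h, the only time point at which it was called lower, and then rose to 1887, 1846 and 2049.7 at 8h (0.62 ± 0.05, adjusted p = 4.01e-23, but 0.57 and not called without replicate 3) and to 2496 ± 57.7 at 48h, its highest mean. It was called higher at 15 of 25 time points and no longer at 168h (1760.0, 1688 and 1599.5, a log2 difference of 0.42 ± 0.05). In GCSF it had 2738, 2673 and 2698 at 168h, below every GCSF 0h library (-0.43 ± 0.05, not called). The OHT effects on *Fli1* had opposite signs in the 2 conditions at 8h (-0.86 ± 0.07 between them, adjusted p = 2.18e-22) and at 168h (-0.85 ± 0.07, adjusted p = 6.46e-22). Over shared time points *Fli1* was 0.74 ± 0.01 higher in GCSF-OHT (adjusted p = 8.02e-98).

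The repressor *Etv6* followed a course like that of *Fli1* in IL3 (r = 0.944 over 25 time points) but less so in GCSF (0.429 over 27), where *Etv6* was 0.22 ± 0.04 above and *Fli1* 0.24 ± 0.05 below GCSF 0h at 8h, neither of them called. *Etv6* had 3152, 3177 and 3076 in undifferentiated cells, 5685, 5873 and 6123 at GCSF 0h (0.91 ± 0.04, adjusted p = 5.85e-44), and 6221, 6298 and 6381 at GCSF-OHT 168h (0.10 ± 0.04 from GCSF 0h, not called). In IL3 it was at its lowest at 2h (2660.1 ± 85.9, SD), was called higher at 14 of 25 time points from 12h on, reached 5695 ± 49.9 at 48h, and had 4481, 4235 and 4098 at 168h (0.45 ± 0.04, not called). The mean over shared time points was 0.60 ± 0.01 higher in GCSF-OHT (adjusted p = 7.46e-98).

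*Elf1* and *Elf4* were called at no time point of either course. *Elf4* lay between group means of 1977 ± 70.3 at IL3-OHT 20h and 3653 ± 54.8 at GCSF-OHT 144h, and *Elf1* between 544 ± 57.9 at IL3-OHT 1h and 1098 ± 46.97 at GCSF-OHT 56h. Neither was called in any comparison made with all libraries. *Elf1* had 738, 810.1 and 739.8 in undifferentiated cells and 733, 811 and 748 at IL3-OHT 168h, which overlap (0.00 ± 0.07, adjusted p = 0.991). *Elf4* was higher in GCSF-OHT than in IL3-OHT at each of 25 shared time points by a mean of 0.38 ± 0.01 (adjusted p = 6.21e-56), and *Elf1* at 24 of them by 0.25 ± 0.01 (adjusted p = 9.71e-35), both under the fold threshold.

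*Gabpa* drifted down after OHT in IL3 and not after OHT in GCSF. It had 1354, 1379.8 and 1373 in undifferentiated cells, rose to 1614 ± 130.6 (SD) at IL3-OHT 2h (not called), and had 881, 1015 and 946 at 168h (-0.53 ± 0.06, adjusted p = 6.38e-13, not called). It was called lower at 80h (-0.59 ± 0.06) and 104h (-0.61 ± 0.06) and at no other time point, and at 1 time point without replicate 1 or without replicate 2. Without IL3-OHT 168h replicate 2 the difference at 168h was -0.58 and called. The GCSF 0h libraries had 1159, 1078 and 1097 and the GCSF-OHT 168h libraries 1172, 1261 and 1159 (0.11 ± 0.06, adjusted p = 0.155). Against undifferentiated cells, *Gabpa* differed by -0.30 ± 0.06 at GCSF 0h (adjusted p = 1.33e-05). At GCSF-OHT 168h it differed from them by -0.19 ± 0.06 (adjusted p = 0.00453). Neither difference was called. The OHT effect at 168h differed between the conditions by 0.64 ± 0.09 (adjusted p = 5.73e-10). *Gabpb1*, the partner that supplies the activation domain of GABP, had 743, 795 and 836 in undifferentiated cells and 513, 496 and 499.8 at IL3-OHT 8h (-0.65 ± 0.08, adjusted p = 2.67e-13). It was called lower at 7 of 25 IL3-OHT time points (3 without replicate 3) and at 1 of 27 in GCSF (0 without replicate 2 or 3).

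**Figure D5:**
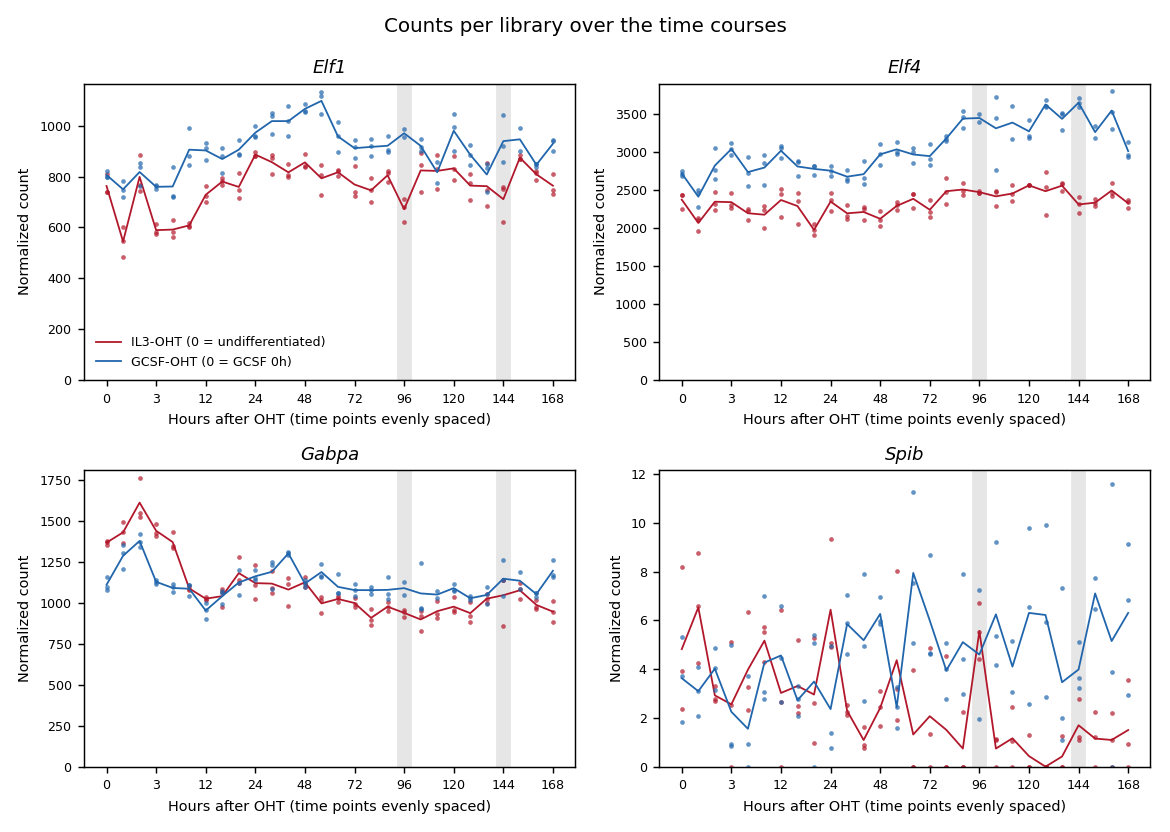
Normalized counts of *Elf1*, *Elf4*, *Gabpa* and *Spib* (y axes) in each library (points) and group means (lines) against hours after OHT, time points evenly spaced, IL3-OHT in red from undifferentiated cells and GCSF-OHT in blue from GCSF 0h, grey bands at 96h and 144h. The *Elf4* mean is higher in GCSF-OHT at each of the 25 shared time points, and *Spib* has at most 10 reads in any library.

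Set against the cytokine conditions as a whole, 4 of 9 members were higher in GCSF-OHT over the shared time points (*Ets1*, *Fli1*, *Etv6* and, at a handful of reads, *Spib*) and none was lower, beside 24.5% of all genes called. The OHT effect differed between the conditions for 2 of 9 members at 8h, beside 27.4% of all genes, and for 5 of 9 at 168h, beside 25.7%. At 1h, a comparison chosen after the values were seen, it differed for 1 of 9, *Ets1* (-0.65 ± 0.06, adjusted p = 2.26e-16), beside 2.81%. Without replicate 2 that difference was -0.56 and not called. These comparisons share their starting libraries, and dose, cytokine and pre-treatment cannot be told apart in any of them.

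Among the other genes of the ETS family, 17 of 18 listed were in the table and 14 passed the filter. At GCSF 0h, 1 of the 14 was higher than in undifferentiated cells (*Erg*) and 4 were lower, with a median log2 difference of -0.51. The lower ones were *Etv1*, *Etv4* and *Etv5*, the PEA3 group that responds to receptor tyrosine kinase signaling, and the ternary complex factor *Elk4*. At IL3-OHT 168h, 3 of 14 were lower and none was higher than in undifferentiated cells (median -0.46). At GCSF-OHT 168h, 4 were lower and 1 higher than at GCSF 0h (median 0.08). The higher one, *Etv2*, had a mean of 1.01 normalized counts against 0 listed at GCSF 0h. Of all genes tested, 33.7% were called at GCSF 0h, 25.4% at IL3-OHT 168h and 24.8% at GCSF-OHT 168h against GCSF 0h. *Etv5* went from 421 ± 28.0 normalized counts (SD, n = 3) in undifferentiated cells to 106 ± 19.4 at GCSF 0h, 6.24 ± 4.28 at GCSF-OHT 168h and 143 ± 14.8 at IL3-OHT 168h. *Spic*, the closest other relative of PU.1, named after its values were seen, was listed at 0 in all 12 libraries of the starting points and of 168h.

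Partners and antagonists of PU.1 and GABP moved in both directions. At IL3-OHT 168h, 3 of 12 were higher (*Jun*, *Irf8* and *Gfi1*) and 3 lower (*Gata2*, *Cebpa* and *Irf4*) than in undifferentiated cells. At GCSF-OHT 168h, 2 were higher (*Cebpb* and *Jun*) and 3 lower (*Gata2*, *Cebpa* and *Gfi1*) than at GCSF 0h. All genes called made up 25.4% and 24.8% in these comparisons. *Jun*, a coactivator that binds PU.1, had means of 4903 in undifferentiated cells, 11075 at IL3-OHT 168h, 897 at GCSF 0h and 5058 at GCSF-OHT 168h. *Irf4* and *Irf8*, which bind DNA together with PU.1, stayed low, with means of at most 27.7 in the 4 groups. *Gata2*, a progenitor factor that opposes PU.1, had means of 15.7 in undifferentiated cells and 2.26 at IL3-OHT 168h.

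Most myeloid genes known as PU.1 targets were higher at 168h than at the start of OHT treatment in both conditions. Of 20 such genes, 11 were higher and 4 lower at IL3-OHT 168h (median log2 difference 0.65, against -0.03 over all genes). At GCSF-OHT 168h, 13 were higher and 1 lower than at GCSF 0h (median 1.14, against 0.00). The lower ones were *Csf3r*, *Tlr4*, *Elane* and *Il1b* in IL3 and *Elane* in GCSF. Some of these calls rest on low counts at both ends, as for *Fcgr1*, *Mrc1* and *Il1b* in IL3 and *Csf1r* and *Btk* in GCSF. All genes called made up 25.4% and 24.8%. Against undifferentiated cells, 4 of the 20 were higher and 9 lower at GCSF 0h, beside 33.7% of all genes called. At GCSF-OHT 168h, 9 were higher and 3 lower than in undifferentiated cells, beside 39.1%. *Itgam*, the integrin chain CD11b, had means of 576 in undifferentiated cells and 7612 at IL3-OHT 168h (3.72 ± 0.06), and of 174.1 at GCSF 0h and 4154 at GCSF-OHT 168h (4.58 ± 0.06). *Lyz2*, lysozyme, rose from 14173 to 804914 (5.83 ± 0.06) and from 60097 to 1237745 (4.37 ± 0.06). *Cybb*, the catalytic subunit of the phagocyte oxidase, went from 1.22 to 162 in IL3 and from 46.5 to 1531 in GCSF, and *Msr1*, a scavenger receptor, from 5.21 to 266 in IL3 and from 0 listed to 106 in GCSF.

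The genes most like each member were taken by Pearson's r of mean log2 values over the 54 groups, among 9930 genes with a mean count of at least 100. For *Spi1* they were *Tusc1* (r = 0.963), *Sp2* (0.961) and *Zfp646* (0.948), and for *Ets1* *Rcsd1* (0.970), *Ncf4* (0.960) and *Homez* (0.956). *Ets2* was most like *Mafk* (0.941), *Pramef8* (0.922) and *Rab20* (0.898), *Fli1* most like *Card9* (0.977), *Tnfaip8* (0.967) and *Pafah2* (0.965), and *Etv6* most like *Apobec3* (0.969), *Daglb* (0.967) and *Tesk2* (0.964). *Elf4* was most like *Bcl3* (0.935), *Stat3* (0.930) and *Ifnlr1* (0.923), *Elf1* most like *Trim59* (0.869), *Nck1* (0.861) and *Fgd4* (0.858), and *Gabpa* most like *Zbtb41* (0.916), *Eif5* (0.893) and *Mmgt1* (0.885). For *Spib*, *Son* (0.801), *Taf2* (0.800) and *Dido1* (0.789) came first, on counts of a few reads. Between members, r was 0.951 for *Fli1* and *Etv6*, 0.874 for *Ets1* and *Etv6*, 0.840 for *Ets1* and *Elf4* and 0.826 for *Ets1* and *Fli1*. Within the courses these values were lower, with 0.944 in IL3 and 0.429 in GCSF for *Fli1* and *Etv6*, 0.590 and 0.637 for *Ets1* and *Etv6*, 0.491 and 0.736 for *Ets1* and *Elf4*, and 0.562 and 0.197 for *Ets1* and *Fli1*. It was 0.160 for *Spi1* and *Ets1* over all groups but -0.823 within IL3-OHT and -0.626 within GCSF-OHT. The groups share starting points, normalization and, along a course, their order in time, so that these values describe the courses and carry no test.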

How the data were processed

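Poly-A RNA of PUER cells was sequenced in 165 libraries. The study quantified reads with Salmon against GRCm38, and the deposited signal is a gene table of counts that the authors divided by DESeq2 size factors. Whole reads were recovered for 100% of values (relative tolerance 1e-06), although a few libraries with a size factor close to 1 could not be checked independently, and 14600246 to 33147945 reads lay on genes per library. The reads carry no molecular identifiers, so that copies of the same molecule cannot be told from separate molecules.

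The 159 libraries of 54 groups were fitted with limma 3.58.1 (R 4.3.3, lmFit and eBayes with trend) as log2(normalized count + 1), for 17414 genes with at least 5 in at least 1 library. Fold changes on this scale understate those of low genes. Benjamini-Hochberg adjustment was over all genes, and calls needed an adjusted p under 0.05 and a log2 difference over 0.58. On simulated data the same fit was tested. Alternatives were other pseudocounts, filters, scaling, blocks, left-out libraries, edgeR 4.0.16 and DESeq2 1.42.0 on the recovered reads. Values without the 120h libraries, the comparisons at 1h, the neighbours of 48h and 72h and of GCSF-OHT 96h and 144h, and the leave-outs of neighbours and time points were chosen after seeing the data. The members and gene lists were chosen with earlier results of these data known. Text values are for the 9 members, *Esr1* and *Gabpb1*, for at most 4 genes of each other list (those called with the largest change at 168h, or counts of 5 or fewer), and for the 3 genes most like each member by Pearson's r. Figures were drawn with matplotlib 3.10.9.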

Additional observations from a re-analysis of the deposited data

Results flagged for a closer look

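For several of the genes the log2 change from the start of OHT treatment differed between GCSF and IL3 by limma's test of the difference itself (GCSF minus IL3). At 8h these were *Ets2* (0.86) and *Fli1* (-0.86). At 168h they were *Spi1* (0.66), *Ets1* (-0.88), *Ets2* (1.53), *Fli1* (-0.85), *Gabpa* (0.64) and *Esr1* (1.12). At 1h it was *Ets1* (-0.65). OHT dose, cytokine and pre-treatment differ together between the conditions and cannot be told apart.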

How the results depend on the processing

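The number of members called stayed within 1.5 times its value in 225 of 228 recomputations. At IL3-OHT 8h it lay between 1 and 2 when a replicate was left out, and for the OHT effect at 1h between 0 and 1. With the replicate number as a replicate block, 4 members were called at GCSF 0h, and the block changed no member count. Same-numbered libraries did not deviate together in the comparisons checked (correlations from -0.05 to 0.04), and the main fit left them unpaired. With at most 3 libraries per group, these values cannot show that same-numbered samples share nothing but a number. Over the IL3-OHT course, edgeR called 6 members, without *Gabpa*. Signs turned for differences close to 0. *Elf4* at IL3-OHT 168h was 0.02 with edgeR and ran from -0.07 to 0.01 when a replicate was left out, at GCSF-OHT 8h it ran from -0.01 to 0.11, and its OHT effect at 1h ran from -0.05 to 0.14. *Ets1* at GCSF-OHT 8h ran from -0.11 to 0.02. For *Spib*, at a few reads, the 8h difference between conditions was 0.11 with edgeR and 0.15 with DESeq2, and leave-outs gave -0.42 to 0.31. Its leave-outs ran from -0.67 to 0.11 in the comparison of the 2 starting points, from -0.20 to 0.70 for IL3-OHT 8h, from -0.17 to 0.63 for GCSF-OHT 8h, and from -0.09 to 0.74 for GCSF-OHT 168h against undifferentiated cells. The causes were not tested. Of the r values with the most similar genes, 18 moved and 63 did not under Spearman's rho or within 1 course. The 18 include moves of less than 1.5 times. Those that moved by over 1.5 times were, within GCSF-OHT, *Fli1* with *Card9* (0.234) and *Pafah2* (0.613) and *Spib* with *Son* (0.300), *Taf2* (0.383) and *Dido1* (0.237), and within IL3-OHT *Elf4* with *Bcl3* (0.595). *Elf4* with *Stat3* (0.626) and *Ifnlr1* (0.620) in IL3-OHT came close to that. Depth limits *Spib* alone among the members.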
